A study of Rattus norvegicus with 8 samples.

Results

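Hepatic drug and bile acid transporters are the carriers that move bile acids, bilirubin conjugates, lipids, steroids and drugs across the membranes of the hepatocyte. They were defined here by name, as every non-control probe whose gene belonged to the Slco, Slc22a, Slc10a, Abcb, Abcc or Abcg families. The rule used no measured value. It found 103 of 45598 probes, which stood for 70 of 27110 named genes, and 66 of these probes for 51 genes were bright enough to be tested. The remaining 19 genes were not tested, and 11 of them were above background on no array with complete marks.

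Sodium-dependent (Slc10a1) and sodium-independent (Slco) carriers take bile acids and organic anions from sinusoidal blood into the hepatocyte. Export pumps of the ATP-binding cassette families then secrete bile acids, phospholipid, sterols and conjugates across the canalicular membrane, or return conjugates to the blood across the sinusoidal membrane. Slc22a carriers handle organic cations, organic anions and carnitine.

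The samples came from livers of F344 rats that had received retrorsine, an alkaloid that blocks division of mature hepatocytes, followed by partial hepatectomy (Ret/PH). Small hepatocyte-like progenitor cells (SHPCs), which form clusters in such livers, were cut out by laser microdissection (LMD) from livers without transplantation (control SHPCs, 3 samples) and from livers given bone marrow mesenchymal cells (BM-MCs) through the spleen (SHPCs with BM-MCs, 3 samples), with a single time of harvest after transplantation. Mature hepatocytes (MHs, 2 samples) were, by the sample labels, cut from control recipient livers, so they too had been exposed to retrorsine and partial hepatectomy. The study's text can also be read as placing the MHs in livers given BM-MCs, and the labels were followed here. The labels name the DPPIV+ strain for all samples, whereas the methods describe DPPIV-negative female recipients and male DPPIV+ donors, and no sample is tied to an animal. P-values therefore measure the spread between these samples, which may be technical. The donor cells were a mixed population of adherent marrow cells that had not been purified.

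RNA was hybridised to 1-colour Agilent rat arrays, and values below are log2 signals from which the array's own 75th percentile was subtracted, so that 0 is the level of that percentile. Levels of different genes are not comparable, because each rests on its own probe. The share of spots that exceeded background clearly was 57.0% to 61.5% per array, and none was saturated. All 8 arrays lay on 1 slide. Its first array set held both MHs with control SHPC replicates 1 and 2, and its second held all SHPCs with BM-MCs with control SHPC replicate 3. The 10 hepatocyte markers were bright in every sample, and their summed signal, in units of the 75th percentile, was 975 to 1069 in MHs, 1022 to 1250 in control SHPCs and 914 to 1154 in SHPCs with BM-MCs. Of these 10 markers 0 were called, and for MHs against control SHPCs 1 had a log2 fold change above 0 and 9 below. At an unadjusted p under 0.05, 3 were lower in MHs (against 7.72% of all genes), namely Tat (-1.04), Cps1 (-0.92) and Apoa1 (-0.73), and 0 higher (against 12.5%). That of the 5 tested cholangiocyte markers was below 1 throughout, at 0.344 to 0.623. The 8 Kupffer cell markers, of which 0 were called in any comparison, had a sum of 88.3 to 95 in MHs, 45.7 to 66.3 in control SHPCs and 57.1 to 82.1 in SHPCs with BM-MCs, so that MHs lay above all SHPCs while the SHPC groups overlapped. For MHs against control SHPCs, 6 of the 8 had an unadjusted p under 0.05 for higher values (against 12.5% of all genes), and 6 did not overlap and were higher (against 25.5%). Kupffer cells express some ABC carriers, including Abcg1. The sum of the 8 stellate cell and fibroblast markers was 8.69 to 9.04 in MHs, above the 7.32 to 8.0 of control SHPCs, and 7.32 to 11.3 in SHPCs with BM-MCs. Of these 8 markers 0 were called, 3 had a log2 fold change above 0 for MHs against control SHPCs and 5 below, from 1.47 for Reln to -1.11 for Col1a1, so the sum and the median of -0.091 differ in sign. The 4 bone marrow mesenchymal markers, with 0 called, had a sum of 7.10 to 8.45 in MHs, below all SHPCs at 11.3 to 15.9 in controls and 9.41 to 15.2 with BM-MCs. For MHs against control SHPCs 2 of them were above 0 and 2 below, from 0.065 for Eng to -0.83 for Cxcl12. Cxcl12 was the brightest of the 4 and carried most of their sum. The part of these cells in the differences below was not tested. In bulk samples, a smaller number of cells of a type and less RNA per cell cannot be told apart.

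**Figure D1:**
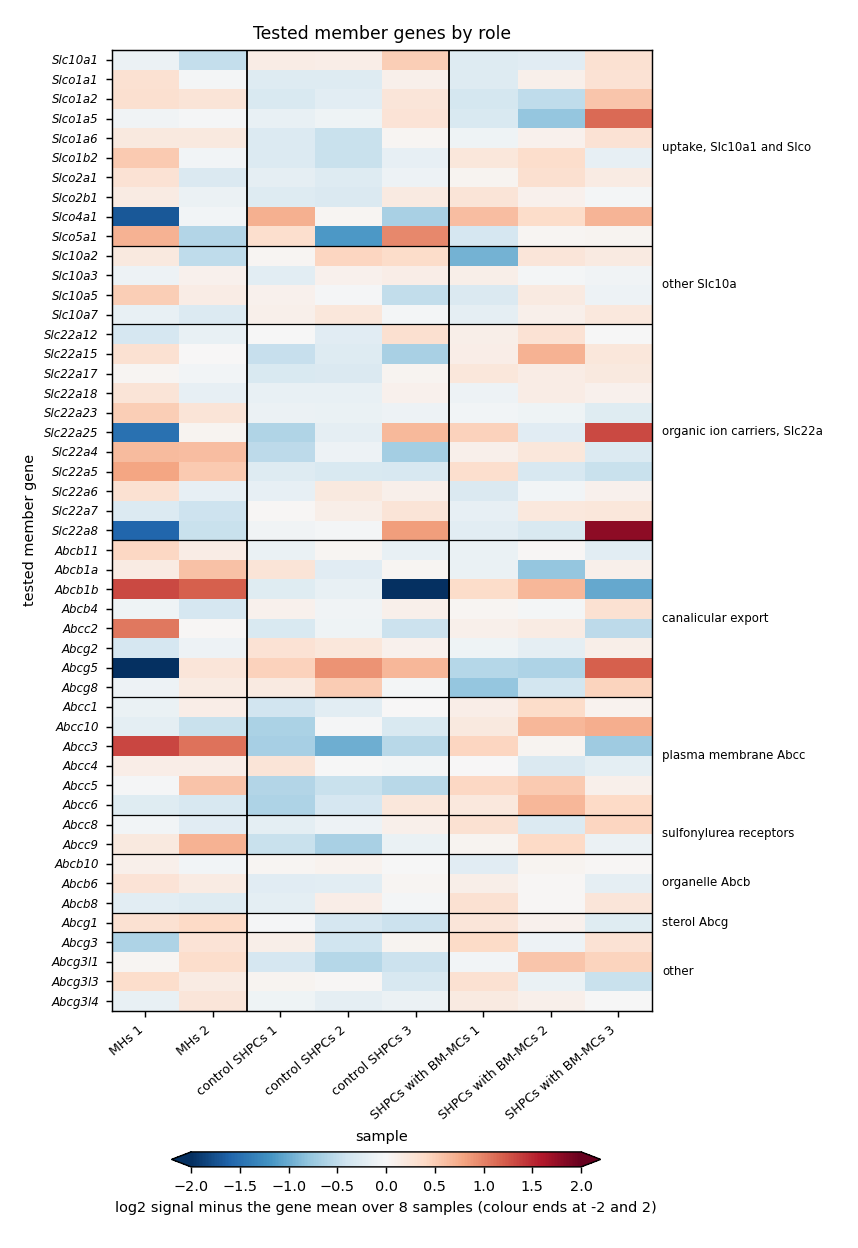
Log2 signal of 49 of the 51 tested transporter genes (rows, ordered by role) in each of the 8 samples (columns), with the mean of each gene over all samples subtracted. Red is above and blue below that mean, and the colour ends at -2 and 2. Abcb1b and Abcc3 are red in both MH samples, and control SHPC replicate 3 and BM-MC SHPC replicate 3 share low Abcb1b and high Slc22a8.

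The 250 bases before the RefSeq gene start, in the rat build GRCr8, were searched on both strands for motifs of FXR and HNF4, which are nuclear receptors, and of the homeodomain factor HNF1, all of which regulate bile acid genes. A promoter was found for 58 of the 70 genes, among 27457 promoters in all. Abcc3 and Abcb11 were among the genes without one, so they were not searched. Each full motif has a pair of arms that are 1 free base apart, and up to 2 mismatches in the arms were allowed. The FXR inverted repeat, AGGTCA and then TGACCT, was found in 3 promoters of the families (5.17%, against 1.15% of all promoters), those of Slco1b2, Slc22a3 and Slc22a25. The HNF4 direct repeat, AGGTCA and then AGGTCA, was found in 1 (1.72%, against 3.08%), that of Abcg3, and the HNF1 palindrome, GTTAAT and then ATTAAC, in 2 (3.45%, against 1.13%), those of Slc10a2 and Slc22a22. A single arm AGGTCA, which is part of the first and second of these motifs, occurred without mismatch in 8 promoters (13.8%, against 13.7%). Such matches describe these letters and do not show binding. Promoters are printed for the bile acid carrier Slc10a1 and the anion carrier Slco1b2, whose promoter holds the closest match to the FXR repeat, and for Abcb1b, the member with the largest difference between MHs and control SHPCs. Capitals mark the FXR match in Slco1b2, 85 to 73 bases before the start with 1 mismatch, and the 2 single arms in Slc10a1, and none of these motifs was found in the stretch of Abcb1b.

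Slco1b2, chr4:176282334-176282583, plus strand: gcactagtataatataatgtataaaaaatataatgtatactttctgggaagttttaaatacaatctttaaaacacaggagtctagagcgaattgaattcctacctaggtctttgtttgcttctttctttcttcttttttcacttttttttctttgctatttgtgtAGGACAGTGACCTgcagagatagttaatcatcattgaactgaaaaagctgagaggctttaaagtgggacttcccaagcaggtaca
Slc10a1, chr6:106357945-106358194, minus strand: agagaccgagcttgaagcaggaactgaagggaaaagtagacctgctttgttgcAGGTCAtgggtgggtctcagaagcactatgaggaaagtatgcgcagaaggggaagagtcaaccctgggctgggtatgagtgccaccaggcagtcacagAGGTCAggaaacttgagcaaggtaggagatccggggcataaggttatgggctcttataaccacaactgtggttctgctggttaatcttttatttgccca
Abcb1b, chr4:26280030-26280279, minus strand: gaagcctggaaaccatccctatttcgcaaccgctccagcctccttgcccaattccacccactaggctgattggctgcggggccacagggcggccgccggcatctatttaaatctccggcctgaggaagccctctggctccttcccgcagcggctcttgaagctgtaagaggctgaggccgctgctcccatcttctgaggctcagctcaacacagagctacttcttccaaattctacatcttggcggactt

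The first comparison set MHs against control SHPCs and asked how the transporter complement of the progenitor clusters differs from that of mature hepatocytes in livers with the same treatment. A single transporter, Abcc3, passed the test, and it was higher in MHs. The P-glycoprotein gene Abcb1b had a larger difference in the same direction without passing, and the ergothioneine carrier Slc22a4 and the carnitine carrier Slc22a5 had smaller ones. The bile acid carrier Slc10a1 and the anion carrier Slc22a7 lay lower in MHs than in every control SHPC sample, also without passing. Of the 51 tested genes, 1 was called higher at an adjusted p under 0.05 (limma with Benjamini-Hochberg adjustment) and 0 were called lower. Among all 14536 tested genes the shares were 0.227% higher and 0.998% lower. At an unadjusted p under 0.05, 16 transporters were higher (31.4%, against 12.5% of all genes) and 3 lower (5.88%, against 7.72%). Values of MHs and control SHPCs did not overlap for 19 transporters that were higher in MHs (37.3%, against 25.5%) and 9 that were lower (17.6%, against 16.9%). The log2 fold change was above 0 for 31 transporters (60.8%, against 57.3%), with a median of 0.14 over the transporters and 0.057 over all genes. This median was 0.093 without MH replicate 1, 0.22 without MH replicate 2 or control SHPC replicate 3, 0.23 without scaling and 0.045 when all 70 genes were taken without the filter.

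Among the exporters of the sinusoidal membrane, Abcc3 returns bile acid and bilirubin conjugates to the blood. Its signal was -3.09 and -3.34 in MHs, -5.10, -5.40 and -4.99 in control SHPCs and -4.01, -4.37 and -5.13 in SHPCs with BM-MCs. Both MH samples stood above all 6 SHPC samples, and BM-MC SHPC replicates 1 and 2 lay between the MHs and the controls while replicate 3 lay within the control range. Abcc3 rose by 1.95 on the log2 scale in MHs over control SHPCs (standard error, SE, 0.31, 95% interval 1.2 to 2.70, 3.86-fold, adjusted p = 0.038). Its probe lies on chromosome 10 from 82987122 to 82987181 on the minus strand in rn4, the build of the array annotation. Whether probes lie in coding or untranslated sequence was not analysed here. The call was lost, at unchanged direction, when any 1 of 6 samples was left out (adjusted p = 0.134, 0.137 and 0.061 without control SHPC replicate 1, 2 or 3, 0.243 and 0.134 without MH replicate 1 or 2, and 0.073 without BM-MC SHPC replicate 2). Within the first array set, which held both MHs and 2 controls, the log2 fold change was 2.04 (adjusted p = 0.024), and with the array set as a block it was 2.04 (adjusted p = 0.061). The call was also lost with normexp and quantile normalisation on 7 arrays, where the value was 0.97 (adjusted p = 0.072), without the filter on dim probes (adjusted p = 0.108), with the replicate number as a block (adjusted p = 0.099) and by the methods' t-test after Benjamini-Hochberg adjustment (adjusted p = 0.137). The other tested Abcc exporters of the plasma membrane, Abcc1, Abcc4, Abcc5, Abcc6 and Abcc10, were not called.

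Abcb1b encodes a P-glycoprotein, which pumps hydrophobic drugs into bile. Its signal was 5.27 and 5.14 in MHs, 3.71, 3.79 and 1.80 in control SHPCs and 4.32, 4.61 and 2.92 in SHPCs with BM-MCs. MHs were above every SHPC sample, while replicate 3 was the lowest of its group in both kinds of SHPCs. The log2 fold change of 2.1 between MHs and control SHPCs did not pass (SE 0.69, adjusted p = 0.181), and the second tested probe of the gene gave 2.46. Within the first array set, without the low control replicate 3, it was 1.46 and passed (adjusted p = 0.026), whereas with the array set as a block it was 1.46 and did not pass (adjusted p = 0.236). The Kupffer cell marker sum was also lowest in control SHPC replicate 3, at 45.7, and in BM-MC SHPC replicate 3, at 57.1, and whether this bears on Abcb1b was not tested. For Abcb1a, the paralogous pump, signals were -4.34 and -3.91 in MHs, -4.25, -4.72 and -4.46 in control SHPCs and -4.64, -5.28 and -4.40 in SHPCs with BM-MCs, with MHs and controls overlapping. Abcb1a and Abcb1b are close in sequence, and how far their probes share transcripts was not examined.

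Of the 8 canalicular exporters, 0 were called, 3 had an unadjusted p under 0.05 for higher values in MHs (against 12.5% of all genes) and 1 for lower values (against 7.72%). Abcb11, the bile salt export pump that secretes bile acids into the canaliculus, was at 4.37 and 4.09 in MHs, at 3.83, 3.99 and 3.80 in control SHPCs and at 3.82, 3.98 and 3.73 in SHPCs with BM-MCs. MHs lay above all SHPCs by a small margin (log2 fold change 0.36 against control SHPCs, adjusted p = 0.236), with 0.22 left without MH replicate 1, and its other tested probe gave 0.16. Abcc2, which secretes bilirubin conjugates, was at 4.73 and 3.70 in MHs and at 3.37, 3.59 and 3.25 in control SHPCs (log2 fold change 0.81, adjusted p = 0.244). The difference rested mainly on MH replicate 1, without which it was 0.30. Its values with BM-MCs, 3.78, 3.83 and 3.15, overlapped both other groups. Abcb4 flips phosphatidylcholine into bile, and its signal was 1.46 and 1.21 in MHs, 1.63, 1.47 and 1.65 in control SHPCs and 1.59, 1.51 and 1.86 in SHPCs with BM-MCs. MHs were the lowest group, with the nearest control sample almost level.

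Members of the Abcg family, which work as dimers, followed. Abcg2, which exports sulfated conjugates and drugs, was at -3.42 and -3.18 in MHs, at -2.80, -2.85 and -2.99 in control SHPCs and at -3.17, -3.26 and -2.96 in SHPCs with BM-MCs. MHs lay below every control SHPC sample and overlapped SHPCs with BM-MCs (log2 fold change -0.42 against control SHPCs, adjusted p = 0.196). Abcg5 and Abcg8 form a heterodimer that secretes sterols into bile. Abcg5 was at -4.04 and -1.54 in MHs, at -1.31, -0.87 and -1.12 in control SHPCs and at -2.35, -2.40 and -0.59 in SHPCs with BM-MCs. The MH samples differed from each other by more than the controls did, and the log2 fold change of -1.69 (adjusted p = 0.288) was -0.44 without MH replicate 1. Its partner Abcg8 was at -2.20 and -1.93 in MHs, at -1.93, -1.59 and -2.15 in control SHPCs and at -2.88, -2.47 and -1.65 in SHPCs with BM-MCs, and MHs and controls overlapped. In both genes, BM-MC SHPC replicates 1 and 2 lay below all controls and replicate 3 did not.

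**Figure D2:**
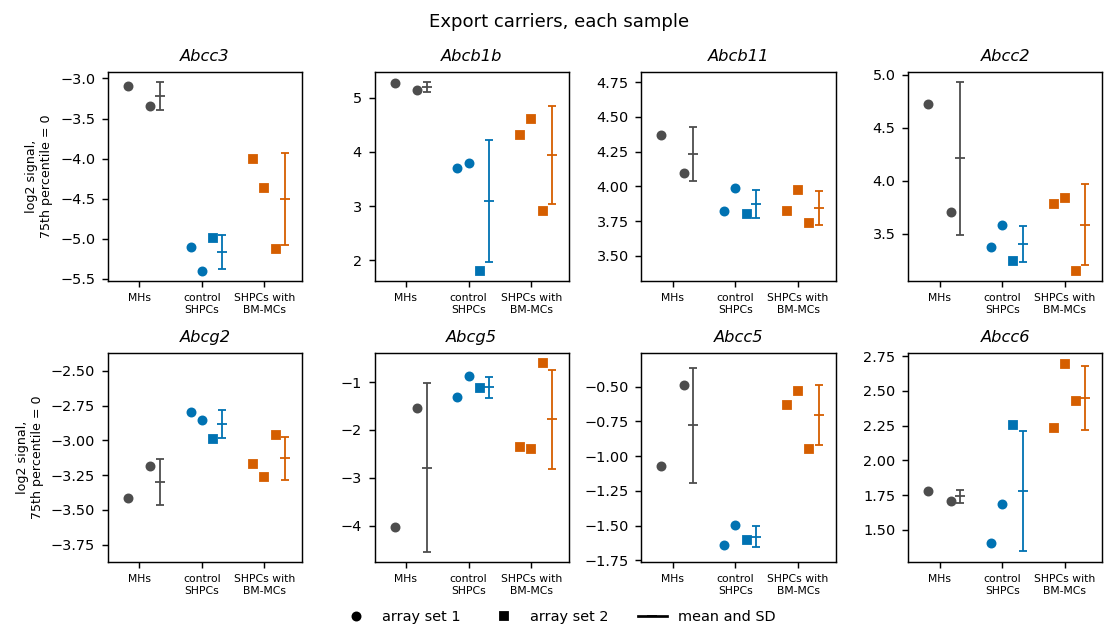
Log2 signal (vertical axis, 75th percentile of the array at 0, a separate scale for each gene) of 8 export carriers in each sample by group, with circles for the first and squares for the second array set and bars for mean and SD. Both MH samples lie above all SHPCs for Abcc3, Abcb1b and Abcb11, and all 3 SHPC samples with BM-MCs lie above all controls for Abcc5.

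No uptake carrier passed the test. Of the 10 tested genes in the uptake group, which comprises Slc10a1 and the Slco family, 0 were called, 7 had a log2 fold change above 0 (against 57.3% of all genes) and 3 below. Slc10a1, the sodium-dependent bile acid carrier of the sinusoidal membrane, was at 3.24 and 2.89 in MHs, at 3.51, 3.50 and 3.85 in control SHPCs and at 3.1, 3.13 and 3.66 in SHPCs with BM-MCs. Its probe lies on chromosome 6 from 104735910 to 104735969 in rn4. Both MH samples were below all controls (log2 fold change -0.56, adjusted p = 0.235). Slco1b2, an organic anion carrier of the same membrane, was at 4.17 and 3.58 in MHs, at 3.38, 3.20 and 3.48 in control SHPCs and at 3.86, 4.0 and 3.49 in SHPCs with BM-MCs. MHs and SHPCs with BM-MCs were each above every control, the latter narrowly, and MHs exceeded control SHPCs by 0.52 (adjusted p = 0.258), or by 0.23 without MH replicate 1.

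Other organic anion carriers of this family overlapped more. Slco1a1 was at 0.91 and 0.56 in MHs, at 0.35, 0.35 and 0.70 in control SHPCs and at 0.35, 0.71 and 0.90 in SHPCs with BM-MCs. The gene named Slco1a2 in the array annotation, whose accession belongs to Slco1a4 in RefSeq, was at 2.88 and 2.82 in MHs, at 2.25, 2.36 and 2.81 in control SHPCs and at 2.22, 2.06 and 3.11 in SHPCs with BM-MCs. Replicate 3 was the highest sample of its group in both SHPC groups for Slco1a2. Slco2b1 was at -1.04 and -1.33 in MHs, at -1.46, -1.49 and -1.02 in control SHPCs and at -0.95, -1.11 and -1.24 in SHPCs with BM-MCs, so that all 3 groups overlapped. Members of the Slco1a subfamily are close in sequence, and cross-hybridisation between them was not examined. Slco4a1, a carrier of thyroid hormone, was not well above background in either MH sample and was above background in 1 of the 2 control SHPC samples with complete marks. The control mean was itself at the level of background, so no fold is given between these groups (adjusted p = 0.372).

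Several Slc22a carriers had higher values in MHs without passing the test. Among the 12 tested genes, 0 were called, 5 had an unadjusted p under 0.05 for higher values (against 12.5% of all genes) and 1 for lower values (against 7.72%). Slc22a4, a carrier of ergothioneine and organic cations, was at -2.94 and -2.96 in MHs, at -4.10, -3.67 and -4.26 in control SHPCs and at -3.48, -3.34 and -3.84 in SHPCs with BM-MCs, with MHs above all SHPCs (log2 fold change 1.06, adjusted p = 0.077). For Slc22a5, which imports carnitine for fatty acid oxidation, signals were -0.85 and -1.13 in MHs, -1.91, -1.95 and -1.97 in control SHPCs and -1.31, -1.97 and -2.10 in SHPCs with BM-MCs. Its log2 fold change was 0.95 (adjusted p = 0.121), and without BM-MC SHPC replicate 1, the highest SHPC sample, the adjusted p was 0.035. Leaving out any other sample did not bring it past the threshold, with an adjusted p of 0.391 without MH replicate 1.

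Slc22a7 and Slc22a8, which carry organic anions, had negative log2 fold changes without passing, as did Slc22a12 (-0.27, adjusted p = 0.457), while Slc22a6 was at 0.027 (adjusted p = 0.954). Slc22a7 was at 3.20 and 3.06 in MHs, at 3.50, 3.59 and 3.73 in control SHPCs and at 3.31, 3.68 and 3.69 in SHPCs with BM-MCs. MHs were below all SHPCs, with a log2 fold change of -0.48 against control SHPCs (adjusted p = 0.183), and the other tested probe gave -0.60. Slc22a8 was at -3.56 and -2.42 in MHs, at -2.05, -2.02 and -1.15 in control SHPCs and at -2.19, -2.28 and -0.20 in SHPCs with BM-MCs. The groups did not overlap between MHs and SHPCs, but the spread within each group was wide (log2 fold change -1.26 against control SHPCs, SE 0.67, adjusted p = 0.348, and -0.69 without MH replicate 1). Slc22a25 was at -7.33 and -5.78 in MHs and at -6.45, -6.02 and -5.20 in control SHPCs, near background on several arrays. It was not above background in MH replicate 1, so no size is given for the difference (adjusted p = 0.574), whose direction turned without that sample.

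**Figure D3:**
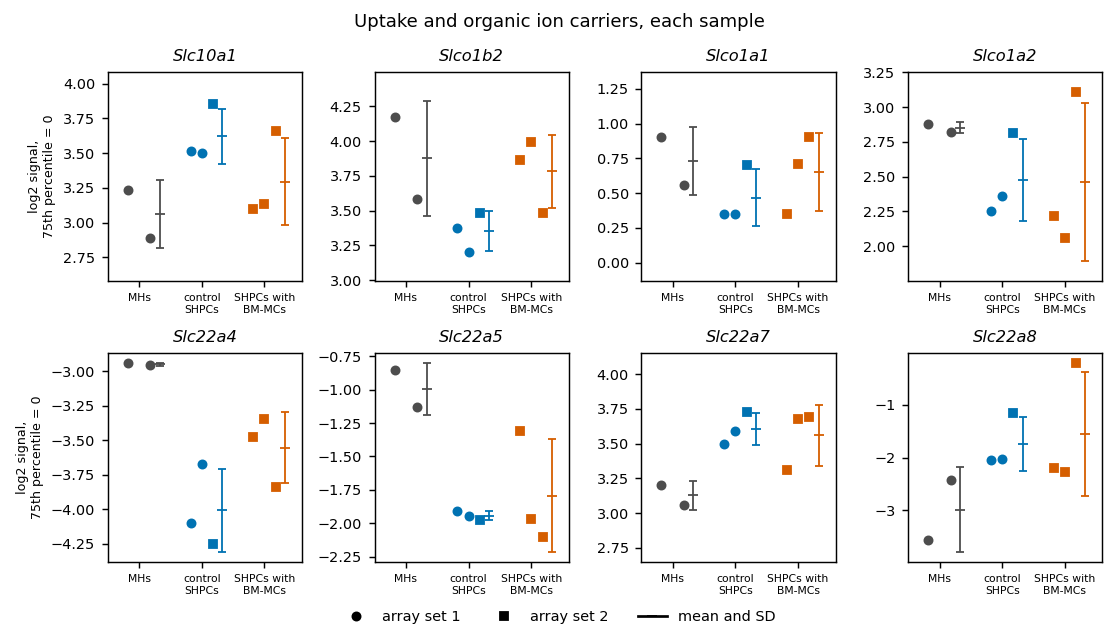
Log2 signal (vertical axis, 75th percentile of the array at 0, a separate scale for each gene) of 8 uptake and organic ion carriers in each sample by group, with circles for the first and squares for the second array set and bars for mean and SD. MHs lie above all SHPCs for Slc22a4 and Slc22a5 and below all SHPCs for Slc22a7 and Slc22a8.

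The second comparison, SHPCs with BM-MCs against control SHPCs, asked whether transplantation was accompanied by a change in the carriers of the progenitor clusters. No transporter passed the test, and Abcc5 and Abcc10 had the largest positive differences. Limma called 0 of 51 transporters higher and 0 lower, against 0.0275% and 0.0% of all genes. At an unadjusted p under 0.05, 10 transporters were higher with BM-MCs (19.6%, against 10.3%) and 0 lower (against 5.85%), and values did not overlap for 10 that were higher (19.6%, against 13.3%) and 0 that were lower (against 11.3%). The log2 fold change was above 0 for 34 of 51 transporters (66.7%, against 53.5%), with a median of 0.19 over the transporters and 0.025 over all genes. Scaling each array to its median instead moved the median of all probes from 0.018 to -0.17, and that of the transporters was then -0.0062. Within the second array set, which held 1 control, the median of the transporters was 0.060. Array set and transplantation coincide except for control SHPC replicate 3. The 3 tested neutrophil markers had a summed signal of 1.13 to 1.57 in control SHPCs and 0.363 to 0.481 with BM-MCs, that of the 2 tested erythroid markers was 0.610 to 2.80 and 0.319 to 0.441, and that of the 5 tested sinusoidal endothelium markers was 10.4 to 12.2 and 12.4 to 13.6. None of these ranges overlapped, the endothelial sum lying narrowly higher with BM-MCs and the others lower. Of the 5 endothelial markers 0 were called, 4 had a log2 fold change above 0 and 1 below, from 0.37 for Stab2 to -0.068 for Lyve1. Values did not overlap for 2 of them (against 13.3% of all genes), and Kdr, the brightest, carried most of the sum. The part of neutrophils, erythroid and endothelial cells in the differences was not tested.

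Of the 6 tested Abcc exporters of the plasma membrane, 5 lay above 0 (against 53.5% of all genes) and 4 had an unadjusted p under 0.05 for higher values (against 10.3%). Abcc5, which exports cyclic nucleotides and organic anions, was at -1.64, -1.50 and -1.60 in control SHPCs and at -0.63, -0.53 and -0.95 with BM-MCs, while MHs were at -1.07 and -0.49. Both other groups lay above every control SHPC sample, and the log2 fold change with BM-MCs was 0.87 (SE 0.14, unadjusted p = 0.00067, adjusted p = 0.119). Abcc10, an exporter of conjugates and hydrophobic drugs, was at -5.43, -4.83 and -5.11 in control SHPCs and at -4.61, -4.14 and -4.09 with BM-MCs, with no overlap (log2 fold change 0.85, adjusted p = 0.179). MHs, at -5.00 and -5.25, lay among the controls. Abcc6, whose loss causes ectopic mineralisation, was at 1.40, 1.69 and 2.25 in control SHPCs and at 2.24, 2.69 and 2.43 with BM-MCs. The groups overlapped through control SHPC replicate 3, and the log2 fold change of 0.67 (adjusted p = 0.266) was 0.20 within the second array set, to which that control belongs.

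Other genes with large differences came from several families. Slc22a15, a member of the organic ion carriers, was at -2.06, -1.86 and -2.24 in control SHPCs and at -1.46, -0.90 and -1.36 with BM-MCs, without overlap (log2 fold change 0.81, adjusted p = 0.165). MHs, at -1.29 and -1.58, were also above every control. Abcg3l1 was at -4.14, -4.38 and -4.24 in control SHPCs and at -3.86, -3.25 and -3.37 with BM-MCs (log2 fold change 0.76, adjusted p = 0.169), and it belongs to a group of similar Abcg3 copies whose transcripts the probes may not separate. For Abcb1b the log2 fold change was 0.85 with overlapping groups (adjusted p = 0.539), and it was 2.14 within the second array set, where the lone control was the lowest sample of all, and 0.20 without that control. Slco1b2 exceeded the controls by 0.43 (adjusted p = 0.283), by 0.30 within the second array set and by 0.24 with the array's median as the scale. With the array set as a block the values were 0.90 for Abcc5, 0.83 for Abcc10, 1.0 for Slc22a15 and 0.74 for Abcg3l1. With normexp and quantile normalisation on 7 arrays they were 0.39 for Abcc10 and 0.35 for Abcg3l1.

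Differences in the other direction were all within overlapping ranges. Log2 fold changes were -0.68 for Abcg5, -0.44 for Abcg8, -0.32 for Slc10a1 and -0.30 for Abcb1a, with adjusted p-values between 0.429 and 0.570. These values turned on single samples. Without BM-MC SHPC replicate 1 they were -0.39 for Abcg5 and -0.17 for Abcg8, and without replicate 2 -0.37 for Abcg5 and -0.044 for Abcb1a. Without replicate 3 they were -1.27 for Abcg5, -0.78 for Abcg8, -0.51 for Slc10a1 and -0.48 for Abcb1a. Leaving out control SHPC replicate 1, 2 or 3 gave -0.18 for Abcb1a, -0.30 for Abcg8 and -0.21 for Slc10a1, respectively. Within the second array set the value was -0.19 for Abcg8 and -0.55 for Slc10a1. With the array's median as the scale it was -0.49 for Abcb1a and -0.52 for Slc10a1, and with quantile normalisation -0.49 and -0.20. Slc10a2, the sodium-dependent bile acid carrier known from ileum and bile ducts, was at -5.55, -5.16 and -5.22 in control SHPCs and at -6.54, -5.34 and -5.41 with BM-MCs, with BM-MC SHPC replicate 1 the lowest sample and not above background, so no size is given for the difference (adjusted p = 0.512). MHs were at -5.39 and -6.09. Of the 8 canalicular exporters, 3 lay above 0 (against 53.5% of all genes) and 5 below, with a median log2 fold change of -0.14.

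The third comparison set SHPCs with BM-MCs against MHs, and it shares MHs and SHPC samples with the others. Both MHs lay in the first array set and all 3 SHPC samples with BM-MCs in the second, so array set and group cannot be told apart except through the controls, which span both sets. No transporter passed, with 0 of 51 higher and 0 lower against 0.378% and 0.0275% of all genes. At an unadjusted p under 0.05, 5 transporters were higher in SHPCs with BM-MCs (9.8%, against 6.8%) and 6 lower (11.8%, against 6.72%). Values did not overlap for 10 that were higher (19.6%, against 14.9%) and 11 that were lower (21.6%, against 18.0%). The log2 fold change was above 0 for 26 (51.0%, against 47.3%), with a median of 0.0083 over the transporters and -0.019 over all genes. Scaling to the array median moved the median of all probes from 0.0030 to -0.19 and that of the transporters to -0.19.

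Carriers of conjugates, hydrophobic drugs and carnitine were among those with lower values in SHPCs with BM-MCs. Log2 fold changes were -1.29 for Abcc3 (SE 0.31, adjusted p = 0.224), -1.26 for Abcb1b (adjusted p = 0.460) and -0.80 for Slc22a5 (adjusted p = 0.280), and in these 3 genes both MH samples were above all 3 SHPC samples. With the array set as a block, the difference of Abcb1b turned to 0.69, and without BM-MC SHPC replicate 3 it was -0.74. Abcb1a followed at -0.65 (adjusted p = 0.379, and -0.39 without BM-MC SHPC replicate 2), and Abcb11 was at -0.39 (adjusted p = 0.336, and -0.25 without MH replicate 1).

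Differences in the other direction did not pass either. Slc22a8 had a log2 fold change of 1.44 (SE 0.67, adjusted p = 0.405), to which BM-MC SHPC replicate 3, at -0.20, contributed most, with 0.76 without it, 0.87 without MH replicate 1 and 0.55 with the array set as a block. Slco4a1, at -5.51, -5.75 and -5.45 in SHPCs with BM-MCs, was above background in 2 of these 3 samples and not well above background in the MHs, and was at least 1.5-fold higher (measured means -5.57 and -7.00, adjusted p = 0.333). With normexp and quantile normalisation on 7 arrays its log2 difference was 0.22, which lies under that bound. Slc22a25 stood at -5.38, -6.06 and -4.52 with BM-MCs and overlapped MHs (adjusted p = 0.422), and no size is given because MH replicate 1 and BM-MC SHPC replicate 2 were not above background. Abcg5 stood 1.01 higher (adjusted p = 0.589), and it was -0.23 without MH replicate 1 and 0.42 without BM-MC SHPC replicate 3. Abcc6 and Slc22a7 did not overlap between the groups and were 0.71 and 0.43 higher (adjusted p = 0.33 and 0.337). With the array set as a block they were 0.0015 and 0.25. With normexp and quantile normalisation on 7 arrays this comparison gave -0.84 for Abcc3 and 0.62 for Abcg5, and with the array's median as the scale -0.58 for Abcb11 and 0.23 for Slc22a7.

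**Figure D4:**
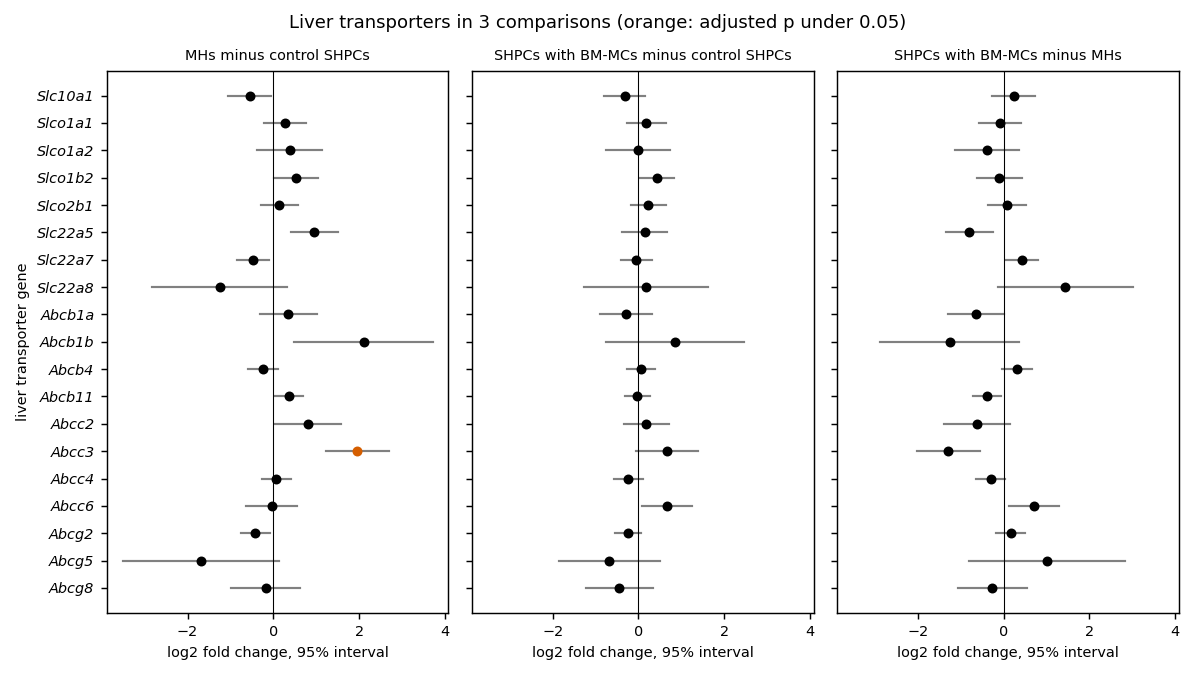
Log2 fold change (horizontal axis) of 19 liver transporters (rows) in 3 comparisons (panels), with points for the estimate, lines for its 95% interval and orange where the adjusted p was under 0.05. Abcc3 in MHs against control SHPCs, at 1.95, is the only orange point, and the intervals of Abcb1b, Slc22a8 and Abcg5 are the widest.

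The other tested genes were spread over the remaining roles. The mitochondrial and organelle carriers Abcb6, Abcb8 and Abcb10 were each above background on all 7 arrays with complete marks. Abcb10, needed for haem synthesis, was at 1.81 and 1.64 in MHs, at 1.73, 1.78 and 1.69 in control SHPCs and at 1.48, 1.75 and 1.72 with BM-MCs, with all groups overlapping. Abcg1, which moves cholesterol to lipoproteins and is abundant in macrophages, was at 0.46 and 0.55 in MHs, at 0.13, -0.19 and -0.28 in control SHPCs and at 0.39, 0.24 and -0.10 with BM-MCs. MHs were the highest samples and control SHPC replicate 3 was the lowest, which also holds for the Kupffer cell marker sum, and the part of these cells was not tested. Slco2a1, a prostaglandin carrier, was at 4.52 and 3.93 in MHs, at 4.04, 3.97 and 4.13 in control SHPCs and at 4.29, 4.54 and 4.39 with BM-MCs, where all samples were above all controls.

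Over the 8 samples, Abcc3 varied with Slc22a5 (Pearson r = 0.93) and Abcb6 (r = 0.92), and most unlike Abcg2 (r = -0.89). Abcb1b varied most like Slc22a4 (r = 0.92) and Abcg1 (r = 0.89), and most unlike Slc10a1 (r = -0.91). These values describe 8 samples of 3 groups, so group differences and the scaling of each array are shared by all genes in them, and no test was made.

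Of the 19 genes that were not tested, 8 were above background on 1 or 2 arrays, namely Abcb9, Abcc12, Abcg4, Slc10a6, Slc22a13, Slc22a24, Slco1c1 and Slco3a1. The other 11 included the kidney carrier Slc22a2, the organic cation carrier Slc22a3, Slco4c1 and the Slco6 genes. Of the 12 genes with more than 1 tested probe, the probes had the same direction in 10 for MHs against control SHPCs, in 10 for SHPCs with BM-MCs against control SHPCs and in 11 for SHPCs with BM-MCs against MHs.

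Genes of bile acid synthesis, conjugation and control that are not carriers of these families were read beside them. Of 32 listed genes, 29 were tested, of which 1 was called higher in MHs than in control SHPCs (against 0.227% of all genes) and 0 lower (against 0.998%), and 0 were called in either direction in the other comparisons. The called gene was Nr1i3, the constitutive androstane receptor that senses drugs and bile acids. It was at 0.41 and -0.46 in MHs, at -2.20, -1.81 and -2.24 in control SHPCs and at -0.63, -0.72 and -1.58 with BM-MCs (log2 fold change of MHs over controls 2.06, SE 0.36, adjusted p = 0.049), so that SHPCs with BM-MCs lay between the other groups. Whether this call holds with other processing or without single samples was not examined. Cyp7a1, the rate-limiting enzyme of bile acid synthesis, was at 0.43 and -0.08 in MHs, at -1.98, -1.94 and -1.51 in control SHPCs and at -0.82, -0.44 and -2.85 with BM-MCs, and its log2 fold change of 1.99 did not pass (adjusted p = 0.179). Nr1h4, the bile acid receptor FXR, was at 2.65 and 2.89 in MHs, at 2.41, 2.41 and 2.28 in control SHPCs and at 2.81, 2.66 and 2.19 with BM-MCs, without a call.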

How the data were processed

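RNA from 8 LMD samples was hybridised to 1-colour arrays. The authors deposited the processed signal of the scanner software (Agilent Feature Extraction 10.7.3.1), an intensity from which background had already been subtracted, with no scaling between arrays, and a value table that holds the same signals. Per the file headers, each spot also carries marks for background, saturation and outliers. For control SHPC replicate 2 the scanner output holds 20903 of 62976 features. Signals of this sample were read from the value table, and its marks did not enter the filter.

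Signals were converted to log2 minus the 75th percentile of each array, outlier spots were left out, and spots of a probe were averaged. Probes had to exceed background in 3 or more of 7 samples (all but control SHPC replicate 2), and the 23111 that did were fitted with limma 3.58.1 in R 4.3.3, and p-values were adjusted by the Benjamini-Hochberg method over all of them. MHs were compared with both SHPC groups in a fit of all 8 samples, and both SHPC groups with each other in a fit of 6. A gene was represented by its brightest tested probe. The genes named are 20 known liver transporters, every called member and the 5 largest differences in each direction per comparison. Values of 2 of these genes are not reported here, and the counts include them. Other genes are given by counts, or by levels as examples chosen after their values were seen. The members, roles and lists were chosen with earlier results of these data known.

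A bound ("at least") uses, for the dim group, the higher of the lowest signal well above background and the measured signal on each array, and none is given where the brighter group's mean lies under its own arrays' floor. The model was tested on simulated data. With 100 probes changed per size among 22969, it recovered 39% of 2-fold and 86% of 4-fold changes for MHs against control SHPCs, and 43% and 72% for SHPCs with BM-MCs against control SHPCs. Unchanged probes called were 7 and 6, respectively. The simulated noise was independent between samples and probes, with no effect of array set, so recovery in the data may differ. The number of arrays limits the precision. Alternatives covered scaling, filters, background correction, blocks, the methods' t-test and samples left out. Symbols were matched to RefSeq by accession for 93 of 103 probes, and promoter sequences are from RefSeq (GRCr8). Probe positions are those of the array annotation (rn4), and 7 member probes have none. Python 3.11.15 and matplotlib 3.10.9 were used for summaries and plots.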

Additional observations from a re-analysis of the deposited data

How the results depend on the processing

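Over the alternatives run, 41 named log2 fold changes were recomputed 901 times. In 870 cases direction and side of the threshold were kept, in 17 the value newly passed, in 11 it no longer passed, and in 3 the direction turned. Some of the 17 passed only by the methods' t-test without adjustment, at a p under 0.05, and not at the adjusted threshold. The direction turned for Slc22a25 in MHs against control SHPCs without MH replicate 1 (0.10), for Abcb1b in SHPCs with BM-MCs against MHs with the array set as a block (0.69) and for Abcg5 in that comparison without MH replicate 1 (-0.23). Leaving out each sample gave -1.44 to 0.10 for this difference of Slc22a25, whose size has no reading because MH replicate 1 was not above background, and -0.23 to 2.26 for that of Abcg5. For MHs against control SHPCs, 1 transporter was called higher in the reported fit (against 0.227% of all genes). This number was 0 by the methods' t-test after Benjamini-Hochberg adjustment, for which no share of all genes is given. It was also 0 with normexp and quantile normalisation on 7 arrays (against 0.0619%) and without the filter on dim probes (against 0.0221%). With the array set as a block it was 0 too, although the share of all genes was then 0.427%, above that of the reported fit. It was 2 with only the 2 groups compared (against 0.344% of all genes) and 2 within the first array set (against 0.764%), 4 with an intensity trend (against 1.01%) and 9 by the methods' t-test without adjustment (against 10.8% of all genes). It ranged from 0 to 2 when each sample was left out (against 0.00688% to 1.03%). Where the call of Abcc3 was lost, its log2 fold change was 0.97 with normexp and between 1.82 and 2.07 otherwise. That unadjusted t-test also called 2 transporters (Abcg2 and Slc22a7) lower in MHs than in control SHPCs (against 7.47%). For SHPCs with BM-MCs it called 7 higher against control SHPCs (against 8.25%), and against MHs 4 higher (against 4.23%) and 1 lower (against 5.54%). The causes of these changes were not tested.

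Across 22969 probes, deviations of same-numbered control and BM-MC SHPCs from their group means correlated at 0.078 to 0.17. Differently numbered samples of these groups gave -0.15 to 0.082. Same-numbered MHs and SHPCs with BM-MCs gave -0.042 and -0.13. Both MH samples deviate as mirror images from their mean, so their values cannot decide whether numbers pair samples. Pairing was not settled. With the replicate number as a block, 1 transporter was again called higher in MHs than in control SHPCs (against 0.124% of all genes), but it was Abcb1b (1.52, adjusted p = 0.036) and not Abcc3 (1.84, adjusted p = 0.099), and 0 were called in the other comparisons. Normexp on all 8 arrays was not run, since the scanner file of control SHPC replicate 2 is incomplete. With 2 or 3 arrays a group and signals near background for Slco4a1, Slc22a25, Slc10a2 and Slc10a5, differences may have been missed. In the simulation, 39% to 43% of 2-fold changes were recovered, and smaller changes were not simulated.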
